A study of Mus musculus with 30 samples.

Results

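Within the night, the retinal pigment epithelium (RPE) of mice at zeitgeber time 19 (ZT19, late night) was compared with that of mice at ZT14 (early night). The RPE is the pigmented cell layer that nourishes the photoreceptors and engulfs the tips they shed. The ZT19 group held 5 samples, collected at clock hour 2, and the ZT14 group held 5, collected at clock hour 21, of 30 samples in the whole series. These 10 samples were all those whose column names carried either clock hour. Both groups, and the 4 other times (ZT0, ZT2, ZT4 and ZT9, 5 samples each), were wild-type C57BL/6 males of 10 to 13 weeks. Each sample was RPE lifted from the choroid of 1 eye of 1 mouse, and was sequenced as single reads of 75 bp. Lights-off between ZT9 and ZT14 is the usual convention for ZT and is not given in the labels.

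The circadian clock is a loop of transcription factors. BMAL1 (encoded by Arntl) pairs with CLOCK and activates the Period, Cryptochrome and Rev-erb genes, whose proteins repress BMAL1 activity or Arntl transcription, so that activator and repressor transcripts peak at opposite times of day. The same loop runs in peripheral tissues, the RPE among them, and drives output factors such as DBP, TEF and NFIL3. In the RPE, daily rhythms are best known from the burst of phagocytosis that follows light onset.

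The values are FPKM, read numbers divided by the length of the transcript and by the mapped depth of the sample, and differences are given as ZT19 minus ZT14 on the scale of log2(FPKM + 1), with the standard error (SE) of a limma fit. Of 51904 genes in the table, 16741 reached 1 FPKM in at least 5 of the 30 samples and were tested. Depth, estimated from the steps between low FPKM values, was 15.2 to 19.7 M reads (M: mega) at ZT19 and 15.1 to 21.1 M at ZT14. At this depth 1 FPKM of a transcript of 2000 bases stands for 27 to 38 reads. ZT14 replicate 3 stood apart, with 12754 genes above 0 against 16723 to 18107 in the other 9 night samples. Genes listed at 0 in spite of a median of 10 FPKM or more elsewhere numbered 557 in that sample and 4 to 19 in each of the others. Its median correlation with the other night samples was 0.772, while the median of pairs at the same time was 0.872. Results are therefore also given without it. The ZT19 group had 4 right eyes and 1 left, and the ZT14 group 1 right and 4 left, so eye and time overlap in part.

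The label of the tissue was checked against RPE markers. Ttr, a thyroid hormone carrier made in the RPE, had a median of 5505 FPKM at ZT19 and 4577 FPKM at ZT14. Rgr, an opsin of the RPE, had medians of 3134 and 2674 FPKM at ZT19 and ZT14, and Rpe65, the isomerase of the visual cycle, had medians of 1149 and 1100 FPKM. Best1, a chloride channel taken as a defining RPE gene, was nearly absent: it lay between 0 and 2.15 FPKM at ZT19 and between 0 and 2.02 FPKM at ZT14. None of the 14 RPE identity genes had an unadjusted p under 0.05 between the night times. Even so, 13 of them were higher at ZT19 (median difference 0.24), as were 54.4% of all tested genes.

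Other tissue was present. Summed FPKM of 15 skeletal muscle genes was 8485 to 32500 at ZT19 and 4647 to 21470 at ZT14. That of 19 surface epithelium genes (cornea and conjunctiva) was 3422 to 5292 at ZT19 and 4454 to 18730 at ZT14. For comparison, the 14 RPE identity genes summed to 12780 to 17020 at ZT19 and 9803 to 14560 at ZT14. In such bulk samples, fewer cells of a type and less RNA per cell cannot be told apart.

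Promoter sequence is shown for 4 clock genes with an unadjusted p under 0.05 at night and a match to a clock-related motif. Motifs of these kinds are known to be bound by activators and repressors of the loop, but binding in these windows was not measured. Of 29 clock and named genes looked up, 24 had a promoter in the RefSeq table (build GRCm38.p6, 33 promoters), and 12 of these had a match. Per2 had no entry. The windows are the 250 bases before the transcription start, printed 5′ to 3′ along the gene, with each match in capitals. The E-box is CACGTG. It was searched on both strands, and it is held by 6.02% of all 32851 promoters. Among those looked up, 6 of the 33 promoters held it, and these belong to 5 genes. The Ciart window (chr3:95882229-95882478, minus strand) holds 3 E-boxes, and the first of the 2 Per1 windows (chr11:69098699-69098948, plus strand) holds 1. The Per3 window (chr4:151044666-151044915, minus strand) holds 2 copies of the D-box TTATGTAA, the element read by DBP, TEF and NFIL3, which 0.82% of promoters hold. The Nfil3 window (chr13:52981040-52981289, minus strand) holds TAGGTCA, the element read by the ROR and REV-ERB receptors. It lies on the opposite strand, so it appears as its reverse complement. That element is held by 2.23% of promoters. The other motifs searched, likewise on both strands, were the E-box variant CACGTT (3.85% of promoters), the second D-box TTACGTAA (0.11%), the second receptor element TGGGTCA (3.24%), the cAMP element TGACGTCA (1.55%) and the consensus glucocorticoid response element (0.39%). Of the clock genes with an unadjusted p under 0.05, Tef also held E-boxes and Nr1d1 the E-box variant, and Arntl, Dbp and Nr1d2 held no match in these windows. The printed matches do not overlap each other. A match describes the letters and is not evidence of binding.
Ciart: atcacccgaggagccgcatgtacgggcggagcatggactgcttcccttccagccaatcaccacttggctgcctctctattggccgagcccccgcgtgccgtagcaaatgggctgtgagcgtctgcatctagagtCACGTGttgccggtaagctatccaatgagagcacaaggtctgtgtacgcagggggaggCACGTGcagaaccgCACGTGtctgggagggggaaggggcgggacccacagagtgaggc
Per1: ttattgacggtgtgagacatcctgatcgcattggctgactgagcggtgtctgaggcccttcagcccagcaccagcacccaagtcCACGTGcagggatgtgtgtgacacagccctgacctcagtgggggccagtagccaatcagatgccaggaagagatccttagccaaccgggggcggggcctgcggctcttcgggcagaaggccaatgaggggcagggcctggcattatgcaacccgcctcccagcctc
Per3: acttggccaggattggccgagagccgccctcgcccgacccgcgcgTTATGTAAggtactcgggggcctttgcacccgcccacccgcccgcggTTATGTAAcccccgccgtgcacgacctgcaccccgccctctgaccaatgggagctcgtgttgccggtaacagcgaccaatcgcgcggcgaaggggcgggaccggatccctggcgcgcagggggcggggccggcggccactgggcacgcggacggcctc
Nfil3: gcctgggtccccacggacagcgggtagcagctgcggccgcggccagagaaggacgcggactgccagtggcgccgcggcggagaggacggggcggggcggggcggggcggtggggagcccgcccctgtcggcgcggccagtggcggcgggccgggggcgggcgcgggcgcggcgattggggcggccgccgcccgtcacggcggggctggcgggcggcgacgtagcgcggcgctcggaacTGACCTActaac

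The clearest difference between the night times was in the clock itself. Arntl rose and Per2 fell, and these were the only genes past an adjusted p of 0.05. Each direction thus held 1 gene of 16741, or 0.00597% of those tested. At an unadjusted p under 0.05, 977 genes (5.84%) were higher at ZT19 and 634 (3.79%) were lower. Without ZT14 replicate 3 those counts were 739 and 743, so the share of the higher side was 49.9% in place of 60.6%. Whatever the p, 54.4% of all tested genes had a positive difference, the median difference was 0.05, and the median SE was 0.39.

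Of the 27 members of 6 clock lists, 1 rose and 1 fell, and 3 members on the higher side and 9 on the lower side at ZT19 had an unadjusted p under 0.05. Without ZT14 replicate 3 these counts were 3 and 8. For 1 higher and 4 lower members, the ZT19 and ZT14 samples did not overlap. Over all tested genes, such separation occurred in 0.609% on the higher side and 0.639% on the lower side.

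Among the activators, Arntl (chr7:113207465-113314126) had 16.2, 11.6, 12.2, 12.7 and 9.79 FPKM at ZT19, against 5.22, 0.905, 0, 1.74 and 3.23 FPKM at ZT14. All 5 ZT19 samples lay above all 5 ZT14 samples, and the value listed at 0 is that of ZT14 replicate 3. The difference was 2.32 ± 0.35 (SE, adjusted p = 0.00673), and 1.96 without replicate 3 (adjusted p = 0.0103). The call held in each of the 10 fits that left out 1 night sample. It was lost when only the 10 night samples were fitted (adjusted p = 0.489) and with a pseudocount of 0.1 (adjusted p = 0.0969). The other activators differed by less: Clock, the partner of BMAL1, by 0.21 ± 0.25, Npas2, which can replace CLOCK, by 0.36 ± 0.49, and Arntl2, a paralogue of Arntl, by 0.69 ± 0.75. The last 2 were at a few FPKM or listed at 0 in several samples.

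Among the repressors, Per2 (chr1:91415982-91459324) had 1.03, 2.09, 4.42, 5.59 and 3.10 FPKM at ZT19, against 77.9, 117, 14.7, 32.8 and 9.11 FPKM at ZT14. The highest ZT19 sample was below the lowest ZT14 sample, but the ZT14 samples themselves were widely spread. The difference was −3.15 ± 0.54 (adjusted p = 0.0228), and −3.43 without ZT14 replicate 3 (adjusted p = 0.0103). The call was lost without ZT19 replicate 1, 2 or 5 (adjusted p = 0.0858, 0.117 and 0.0518) and without ZT14 replicate 1 or 2 (adjusted p = 0.0899 and 0.107). It was also lost with only the 10 night samples (adjusted p = 0.505), with a pseudocount of 0.1 (0.0969), with no filter on low values (0.0679), and with marker scores of rod and stroma (0.0528) or of 5 tissues (0.104) as terms in the fit. With those terms the difference itself was −3.145 with the scores of rod and stroma and −2.80 with those of 5 tissues.

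Per3 (chr4:151003652-151044665), the third Period gene, had 8.51, 12.2, 6.03, 9.86 and 6.09 FPKM at ZT19, against 18.8, 17.7, 17.8, 17.1 and 15.6 FPKM at ZT14. The groups did not overlap and the ZT14 samples lay close together, yet the difference of −0.99 ± 0.30 had an adjusted p of 0.310. Per1 (chr11:69095217-69109960), which also answers to glucocorticoids and light, had 7.59, 8.15, 5.48, 8.60 and 11.6 FPKM at ZT19, against 18.9, 12.9, 7.33, 34.6 and 14.6 FPKM at ZT14. Here replicate 3 of ZT14 fell within the ZT19 range, and the difference was −0.88 ± 0.38 (adjusted p = 0.453). The Cryptochromes, the partners of the Period proteins, showed no such split: Cry1 differed by 0.76 ± 0.84 and Cry2 by −0.47 ± 0.29.

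Ciart, a repressor of the BMAL1 and CLOCK pair, was listed at 0 in 3 ZT19 samples and at 5.75 and 1.76 FPKM in ZT19 replicates 3 and 4. At ZT14 it had 7.28, 7.10, 0.932, 10.3 and 11.8 FPKM, with replicate 3 the low one. The difference was −2.00 ± 0.68 (adjusted p = 0.353), and it was −0.33 with 5 tissue marker scores as terms. Of the DEC repressors, which compete for E-boxes, Bhlhe40 differed by −0.33 ± 0.21 and Bhlhe41 by 0.00 ± 0.23.

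The nuclear receptors act on Arntl and Nfil3, the REV-ERBs as repressors and the RORs as activators. Nr1d2 (REV-ERB beta, chr14:18204054-18239127) had 25.96, 24.2, 27.6, 27.1 and 27.4 FPKM at ZT19, against 70.5, 37.5, 45.1, 50.5 and 52.7 FPKM at ZT14. The ZT19 samples were nearly level and all below the ZT14 samples, with a difference of −0.90 ± 0.20 (adjusted p = 0.140). Nr1d1 (REV-ERB alpha) had 32.6, 7.57, 10.1, 12.1 and 8.23 FPKM at ZT19, against 29.3, 22.5, 21.3, 33.7 and 12.2 FPKM at ZT14. Only ZT19 replicate 1 lay within the ZT14 range, and the difference was −0.85 ± 0.28 (adjusted p = 0.337). Of the 5 receptors, 1 was on the higher side and 2 on the lower side at an unadjusted p under 0.05. Rora and Rorb, neither of them past that threshold, differed by −0.07 ± 0.30 and 0.31 ± 0.52.

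The output factors bind the D-box, DBP and TEF as activators and NFIL3 as their repressor. Dbp (chr7:45705088-45710203) had 81.6, 75.8, 81.2, 65.5 and 40.7 FPKM at ZT19, against 118, 129, 81.7, 184 and 107 FPKM at ZT14. The groups met without crossing, at ZT19 replicate 1 and ZT14 replicate 3, and the difference was −0.83 ± 0.23 (adjusted p = 0.255). Tef had 54.3, 74.2, 119, 138 and 60.9 FPKM at ZT19, against 87.5, 97.2, 365, 237 and 174 FPKM at ZT14, with overlap and a difference of −0.99 ± 0.44 (adjusted p = 0.476). Nfil3 lay on the other side, with 17.9, 9.28, 7.40, 6.91 and 12.2 FPKM at ZT19, against 3.39, 7.09, 0, 5.23 and 3.58 FPKM at ZT14. Its difference was 1.48 ± 0.42 (adjusted p = 0.258), and 0.98 without ZT14 replicate 3, the sample listed at 0. Hlf, the remaining factor of the DBP family, differed by −0.22 ± 0.50.

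The 6 genes of clock protein turnover, which encode the kinases and ubiquitin ligase subunits that mark Period and Cryptochrome proteins, had 1 member with an unadjusted p under 0.05. This was Csnk1d, with 43.0 to 79.7 FPKM at ZT19 and 43.2 to 234 FPKM at ZT14. Its difference of −0.63 ± 0.29 was −0.24 without ZT14 replicate 3, the sample at 234 FPKM.

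**Figure D1:**
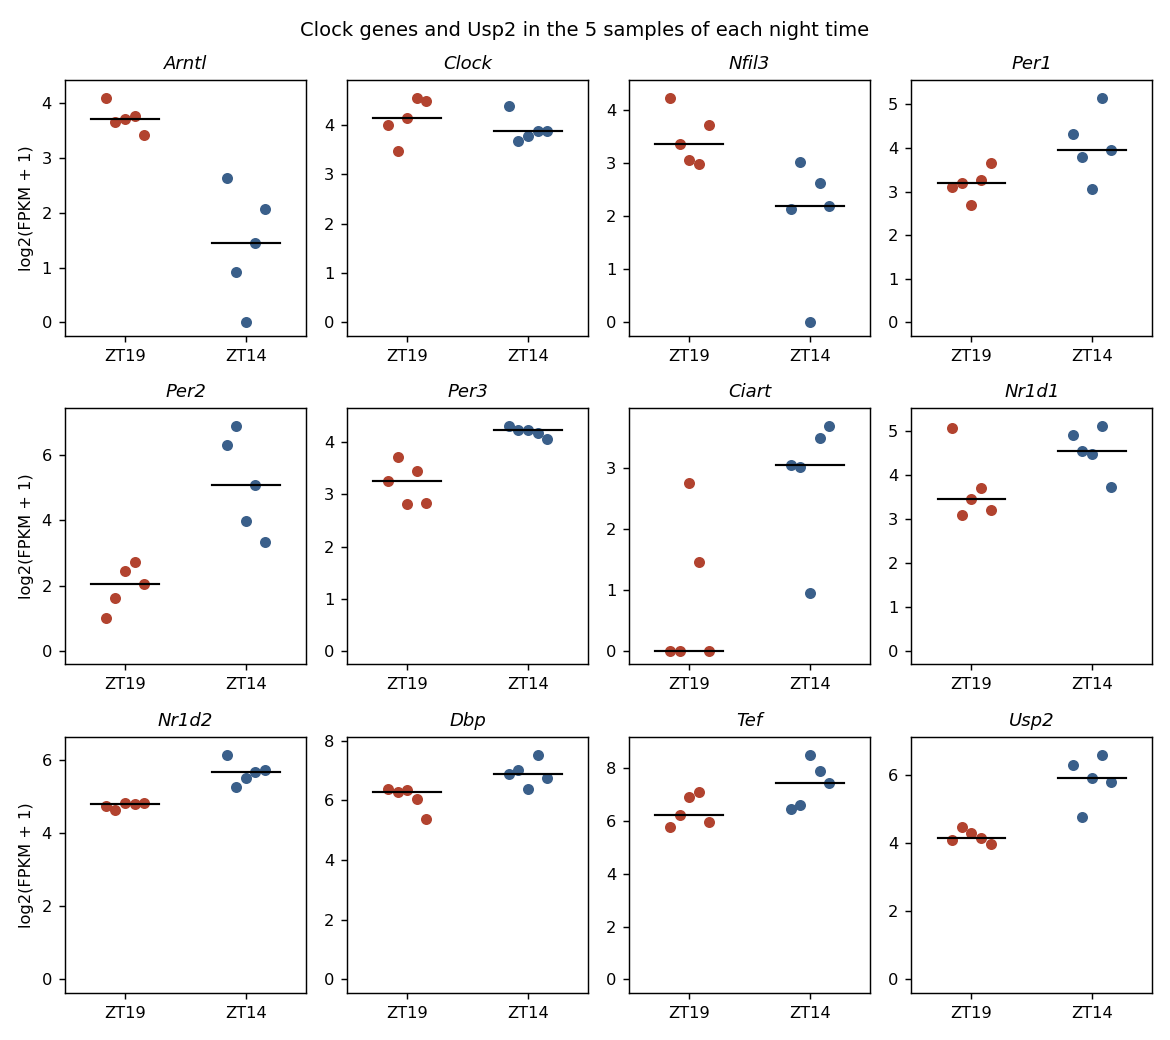
Level of 11 clock genes and Usp2, a clock-controlled deubiquitinase, as log2(FPKM + 1), in each of the 5 samples at ZT19 (red, left) and at ZT14 (blue, right), with a line at the median of each group. Arntl was 9.79 FPKM or more in all 5 ZT19 samples and 5.22 FPKM or less in all 5 ZT14 samples, and Per2 was 5.59 FPKM or less at ZT19 and 9.11 FPKM or more at ZT14.

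The night step was then set against a day step of the same length, 5 h from ZT4 to ZT9, which shares no sample with it. The difference between the steps passed the adjusted threshold in 3 genes on the positive side (0.0179% of those tested) and 5 on the negative side (0.0299%). In all 8, the night step and the day step had opposite signs. The day step alone called 0 genes in limma, with 281 higher and 301 lower at an unadjusted p under 0.05.

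Arntl was 2.32 ± 0.35 in the night step and −1.74 ± 0.35 in the day step, a difference of 4.06 ± 0.50 (adjusted p = 0.000125). Per2 was −3.15 ± 0.54 in the night step and 1.94 ± 0.54 in the day step, a difference of −5.08 ± 0.76 (adjusted p = 0.00248). By day Per2 lay at 7.31 to 52.6 FPKM at ZT9 and 1.18 to 4.18 FPKM at ZT4, and its ranges at ZT19 and ZT4 overlapped.

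Per3, Nr1d2 and Dbp followed Per2 in sign. The step difference was −2.30 ± 0.42 for Per3 (adjusted p = 0.0196), −1.65 ± 0.28 for Nr1d2 (adjusted p = 0.0102) and −1.74 ± 0.32 for Dbp (adjusted p = 0.0235). The levels of Dbp were 210 to 273 FPKM at ZT9 and 97.5 to 180.7 FPKM at ZT4, and those of Nr1d2 were 49.7 to 61.3 FPKM at ZT9 and 25.8 to 40.8 FPKM at ZT4. Over all 27 clock genes, the day step had 10 on the higher side and 1 on the lower side at an unadjusted p under 0.05, where 1.68% and 1.80% of all genes lay.

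Usp2 (chr9:44067021-44095627), whose product removes ubiquitin from proteins, had 16.1, 21.2, 18.8, 16.9 and 14.8 FPKM at ZT19, against 77.8, 26.2, 59.5, 96.1 and 54.9 FPKM at ZT14. The ZT19 samples lay close together below all ZT14 samples. The night step was −1.68 ± 0.42 and the day step 1.36 ± 0.42, a difference of −3.03 ± 0.59 (adjusted p = 0.0415). This call held in 7 of 22 alternatives and was lost in every fit that left out 1 night sample other than ZT14 replicate 2.

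Ihh (chr1:74945315-74951672) encodes Indian hedgehog, a signal that in mouse eyes is known from choroidal endothelium beside the RPE. It had 1.81, 6.86, 1.18, 2.35 and 4.56 FPKM at ZT19, against 0, 1.26, 0, 0.803 and 0.913 FPKM at ZT14. By day it lay between 0 and 0.808 FPKM at ZT9 and between 1.70 and 6.39 FPKM at ZT4. The step difference was 3.20 ± 0.54 (adjusted p = 0.0102). Among 12 endothelial genes at night, all 12 had a positive difference, and the list's median was 0.19. An unadjusted p under 0.05 was held by 4 of them (Pecam1, Egfl7, Cldn5 and Tek), where 5.84% of all genes lay on that side, and by 2 without ZT14 replicate 3. Its summed level was 492 to 928 FPKM at ZT19 and 365 to 593 FPKM at ZT14. The part of this list in the Ihh values was not tested.

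E130114P18Rik (chr4:97568133-97778078) had 7.52, 10.3, 2.19, 4.67 and 10.5 FPKM at ZT19. At ZT14 it was listed at 0 in 4 samples and had 1.21 FPKM in replicate 5. The step difference was 4.33 ± 0.76 (adjusted p = 0.0136). This gene overlaps Nfia on the opposite strand, as Usp2 does Rnf26, Nr1d1 does Thra, Dbp does Sphk2, Nrg4 does Fbxo22, Slc15a3 does Tmem132a and Tmem120b does Rhof. Per3 overlaps Camta1 on the same strand. Whether reads were counted by strand is not given in the sources used here, so reads of such overlapping genes may be mixed.

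With marker scores of surface epithelium, muscle, myelin, rod and stroma as terms, the step difference kept its sign in all 8 genes, and adjusted p was 0.0786 to 0.154 for all but Arntl and Nr1d2. In these 6 genes the step difference was then −4.59 for Per2, 3.22 for Ihh, 3.71 for E130114P18Rik, −2.62 for Per3, −1.46 for Dbp and −3.54 for Usp2, so it was larger in size for Ihh, Per3 and Usp2 and smaller for the other 3. The call of Per3 was lost without ZT19 replicate 3 or 5 (adjusted p = 0.0557 and 0.0634), and that of Dbp without ZT19 replicate 4 or 5 or ZT14 replicate 4 (adjusted p = 0.0553, 0.0634 and 0.0636).

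**Figure D2:**
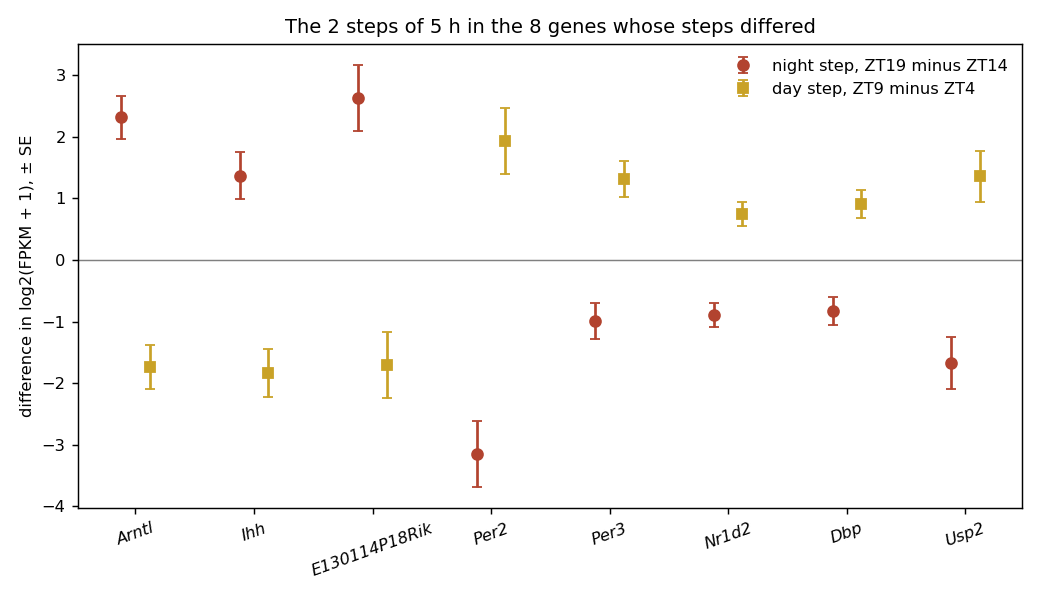
Difference in log2(FPKM + 1), with SE bars, for the night step (red circles, ZT19 minus ZT14) and the day step (yellow squares, ZT9 minus ZT4) in the 8 genes whose steps differed. The 2 steps lie on opposite sides of 0 in every gene, for example 2.32 at night and −1.74 by day for Arntl.

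Outside the clock no gene passed the adjusted threshold, so the genes with the smallest p are given as values. On the higher side, Nrg4, a growth factor of the neuregulin family, had 1.01, 1.98, 1.31, 3.76 and 11.9 FPKM at ZT19 and was listed at 0 in all 5 ZT14 samples. Its difference was 1.95 ± 0.43 (adjusted p = 0.140). The medians of Nrg4 at ZT0, ZT2, ZT4 and ZT9 were 0 FPKM, and it passed the filter on level only through its ZT19 samples. Cisd3, an iron-sulfur protein of mitochondria, had 51.1, 52.4, 27.2, 30.1 and 26.4 FPKM at ZT19, against 3.29, 5.13, 15.2, 24.2 and 13.3 FPKM at ZT14 (1.75 ± 0.40, adjusted p = 0.164). Creg1, a glycoprotein of the endosome and lysosome system, had 71.0, 142, 111, 103 and 110 FPKM at ZT19, against 40.3, 48.8, 22.1, 68.8 and 60.6 FPKM at ZT14 (1.21 ± 0.29, adjusted p = 0.192). In each of these 3 genes the groups did not overlap, as in 0.609% of all tested genes on the higher side. The 3 were named for their small p, which favours separated groups, so the separation adds no support. For Nrg4 the filter itself favoured this outcome, so it is not support for a difference.

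Slc15a3, a peptide and histidine transporter of the lysosome, differed by 2.31 ± 0.54, and its ZT14 values were 0 to 3.91 FPKM. Coro6, an actin-binding coronin, differed by 1.85 ± 0.41, Gbas, a mitochondrial protein, by 1.13 ± 0.26 and Tmem120b by 2.49 ± 0.55. Gbas had 79.5, 207, 179.9, 76.4 and 267 FPKM at ZT19, against 61.0, 47.3, 81.4, 71.7 and 69.0 FPKM at ZT14, and ZT19 replicates 1 and 4 lay within the ZT14 range. With 5 tissue scores as terms its difference was 0.66. Gm11451, a processed pseudogene that may share reads with its parent gene, had 2.21 to 9.02 FPKM at ZT19 and 0 to 0.116 FPKM at ZT14. Its adjusted p was 0.0592. The medians of Gm11451 at ZT0, ZT2, ZT4 and ZT9 were 0, 0.58, 0.11 and 0.13 FPKM. Like Nrg4, it passed the filter on level only with its ZT19 samples, so its separation is not support for a difference.

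On the lower side, Rpia, an isomerase of the pentose phosphate pathway, had 17.6, 14.5, 8.10, 11.2 and 11.5 FPKM at ZT19, against 31.8, 32.4, 27.1, 42.6 and 24.4 FPKM at ZT14 (−1.28 ± 0.28, adjusted p = 0.140). Blmh, a cysteine protease, had 21.6 to 25.2 FPKM at ZT19, against 44.6, 48.6, 49.2, 23.4 and 54.6 FPKM at ZT14 (−0.86 ± 0.20, adjusted p = 0.192), so 4 of the ZT14 samples were high and replicate 4 lay within the ZT19 range. Afdn, the adherens junction protein afadin, had 22.0 to 59.9 FPKM at ZT19 and 70.0 to 467 FPKM at ZT14. Its difference of −1.88 was −1.44 without ZT14 replicate 3, the sample at 467 FPKM.

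The same sample was the highest at ZT14 for Traf5, an adaptor of tumour necrosis factor receptors (93.2 FPKM, difference −3.57, and −3.00 without it), and for Wbp11, a splicing factor (124 FPKM, difference −1.29, and −1.02 without it). It was also the highest for Cptp, a ceramide-1-phosphate carrier (34.1 FPKM, difference −1.44, and −1.24 without it). Col17a1, a collagen of the hemidesmosomes of stratified epithelium, had 20.2, 5.23, 3.004, 22.9 and 27.7 FPKM at ZT19, against 116.5, 71.7, 190, 99.2 and 50.5 FPKM at ZT14 (−2.90 ± 0.63, adjusted p = 0.140). Its groups did not overlap, and with 5 tissue scores as terms the difference was −2.84. Gm16136, an antisense gene that overlaps Grhl2, had 1.45 to 17.6 FPKM at ZT19 and 14.6 to 33.1 FPKM at ZT14.

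Among gene groups, the nuclear-encoded respiratory chain genes, which build the complexes of mitochondrial energy production, lay together on the higher side at ZT19. All 20 had a positive difference, with a median of 0.33 beside 0.05 for all tested genes, and 8 had an unadjusted p under 0.05 while 5.84% of all genes did so on that side. None passed the adjusted threshold in limma. Cox5b, a subunit of cytochrome oxidase, had 371, 454, 356, 328 and 291 FPKM at ZT19, against 178, 219, 246, 244 and 235 FPKM at ZT14, with no overlap (0.67 ± 0.17, adjusted p = 0.201). Sdhb, an iron-sulfur subunit of complex II, differed by 0.71 ± 0.19 (adjusted p = 0.242). Without ZT14 replicate 3, 11 of the 20 had an unadjusted p under 0.05, with a median of 0.47.

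The summed respiratory chain level was 9590, 11130, 7931, 7306 and 9758 FPKM at ZT19, against 6481, 6530, 10760, 6807 and 6590 FPKM at ZT14, so ZT14 replicate 3 lay within the ZT19 range. Skeletal muscle markers stood beside this. Their summed level was 11880, 32500, 16240, 8485 and 18560 FPKM at ZT19, against 6547, 5314, 21470, 9735 and 4647 FPKM at ZT14, with replicate 3 again the high one. All 15 muscle genes had a positive difference (median 0.91), as did 54.4% of all tested genes. An unadjusted p under 0.05 was held by 7 of them, where 5.84% of all genes lay on the higher side. Without ZT14 replicate 3 it was held by 14 muscle genes, and by 739 of all 16741 genes on that side. Mylpf, a myosin light chain, was the most abundant muscle gene, at 2234 to 9847 FPKM at ZT19 and 1251 to 4874 FPKM at ZT14. With the 5 tissue scores as terms, the difference of Sdhb was 0.40 and that of Cox5b 0.61.

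Other energy genes were counted in the same way, against the same 5.84% on the higher side. Of 19 fatty acid oxidation and lipolysis genes, 3 were on the higher side at an unadjusted p under 0.05 (Acadvl 0.57 ± 0.18, Pnpla2 0.71 ± 0.30 and Acadl 0.42 ± 0.20) and 0 on the lower side, and 4 and 0 without ZT14 replicate 3. Of 17 glycolysis genes, 2 were on the higher side (Gapdh 0.51 ± 0.17 and Aldoa 0.45 ± 0.18) and 0 on the lower, and 4 and 0 without ZT14 replicate 3. With the 5 tissue scores as terms, the differences were 0.12 for Acadvl, 0.36 for Pnpla2, 0.24 for Acadl, 0.32 for Gapdh and 0.14 for Aldoa. Both lists hold genes that muscle also expresses, and the part of muscle in these values was not tested.

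Immediate early genes are the transcription factors and regulators that cells switch on within minutes of a stimulus. Of 18 members tested, 4 had an unadjusted p under 0.05 on the lower side, where 3.79% of all genes lay, and 0 on the higher side. The median was −0.22, and −0.41 without ZT14 replicate 3. Klf4 had 24.5, 33.4, 28.6, 64.5 and 56.5 FPKM at ZT19, against 159, 175, 96.9, 113 and 104 FPKM at ZT14, with no overlap (−1.68 ± 0.43, adjusted p = 0.201). Dusp1, a phosphatase that shuts off stress kinases, had 25.8, 22.7, 14.4, 12.5 and 14.9 FPKM at ZT19, against 33.9, 40.5, 21.0, 28.3 and 24.5 FPKM at ZT14 (−0.70 ± 0.30, adjusted p = 0.454). Nr4a2, an orphan nuclear receptor, differed by −0.78 ± 0.37. Fos and Egr1, the most used markers of such a response, differed by 0.07 ± 0.61 and 0.09 ± 0.44.

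The summed immediate early level was 263, 243, 203, 253 and 249.1 FPKM at ZT19, against 466, 484, 321, 378 and 307 FPKM at ZT14. In this sum every ZT19 sample was below every ZT14 sample, but Klf4 alone made up 96.9 to 175 FPKM of it at ZT14. The mean log2(FPKM + 1) of the list, where each gene counts alike, overlapped, at 3.07 to 3.38 at ZT19 and 3.05 to 3.74 at ZT14. Surface epithelium genes, where Klf4 is also known to be abundant, were measured beside the immediate early genes. All 19 surface epithelium genes had a negative difference (median −0.91). An unadjusted p under 0.05 was held by 8 of them, where 3.79% of all genes lay on the lower side. Without ZT14 replicate 3 it was held by 11 of them, and by 743 of all 16741 genes on that side. Surface epithelium genes summed to 5292, 4974, 3422, 4977 and 4629 FPKM at ZT19, against 15230, 18730, 4454, 12910 and 6113 FPKM at ZT14. Krt12, the keratin of the corneal epithelium, had 174, 86.5, 3.42, 534 and 888 FPKM at ZT19, against 3011, 564, 860, 3202 and 1247 FPKM at ZT14. With the 5 tissue scores as terms, the difference of Klf4 was −1.29.

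Glucocorticoid-responsive genes follow the daily wave of the adrenal hormone corticosterone. Of 16 members, 6 were on the lower side at an unadjusted p under 0.05, where 3.79% of all genes lay, and 0 on the higher side, where 5.84% lay. The median was −0.14, and without ZT14 replicate 3 the counts were 5 and 0. Fkbp5, a chaperone of the glucocorticoid receptor, had 19.1, 15.4, 9.26, 14.8 and 14.8 FPKM at ZT19, against 42.8, 45.9, 23.8, 34.6 and 33.1 FPKM at ZT14. These groups did not overlap, and the difference was −1.24 ± 0.36 (adjusted p = 0.299). Zbtb16, a zinc finger repressor, differed by −0.90 ± 0.34 and Tsc22d3, which mediates anti-inflammatory effects of the hormone, by −0.60 ± 0.25. Per1 and Dusp1, given above, are also members. The summed level of the list overlapped, at 2359 to 3639 FPKM at ZT19 and 2308 to 3694 FPKM at ZT14.

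**Figure D3:**
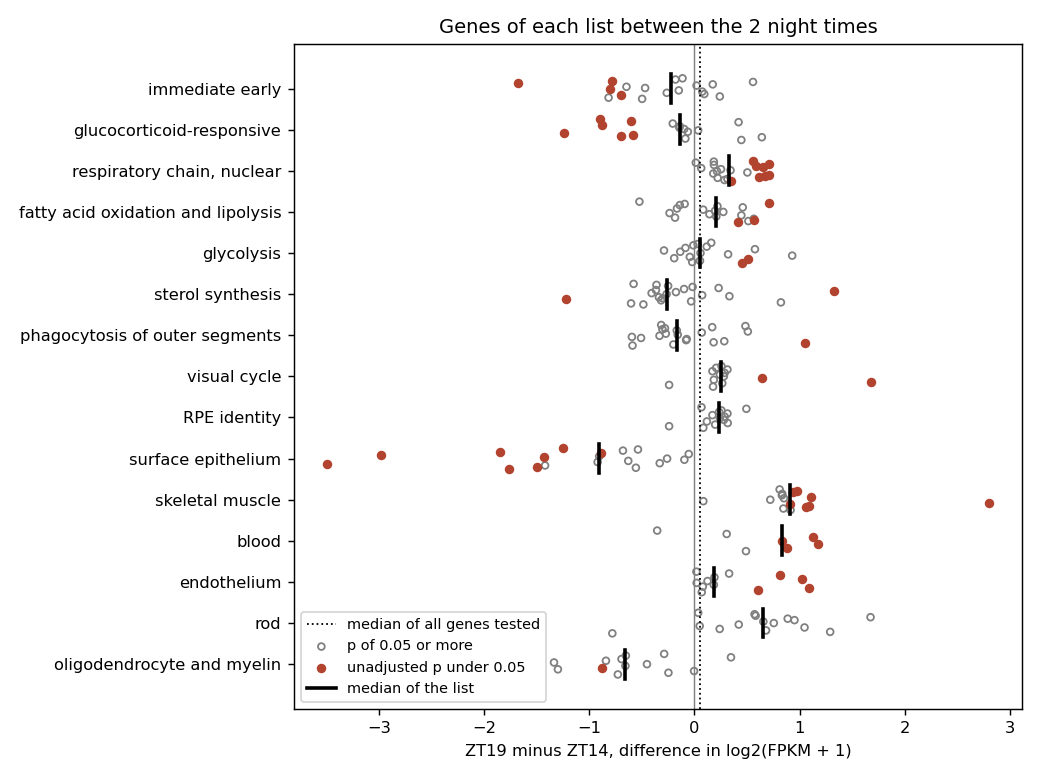
Difference in log2(FPKM + 1), ZT19 minus ZT14, of each tested gene in 15 lists; filled points have an unadjusted p under 0.05, thick bars mark each list's median, and the dotted line marks the median of all tested genes, 0.05. All 20 respiratory chain and all 15 skeletal muscle genes lie above 0, and all 19 surface epithelium genes lie below it.

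In sterol synthesis, 21 genes were tested and 1 lay on each side at an unadjusted p under 0.05. Of all genes, 5.84% lay on the higher side and 3.79% on the lower side. The higher one was Mvd, a decarboxylase of the mevalonate path, which differed by 1.33 ± 0.45. The list's median was −0.27, and without ZT14 replicate 3 there were 1 higher and 3 lower.

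Of 20 genes of outer segment phagocytosis, 13 had a negative difference, and the list's median was −0.16. At an unadjusted p under 0.05 the list held 1 member on the higher side, where 5.84% of all genes lay, and 0 on the lower side. This was Cd36, a scavenger receptor for photoreceptor fragments, with 33.8, 80.2, 46.5, 32.2 and 85.1 FPKM at ZT19, against 33.8, 22.4, 38.8, 21.7 and 12.5 FPKM at ZT14 (1.06 ± 0.31, adjusted p = 0.302). With the 5 tissue scores as terms this was 0.25. Of 13 visual cycle genes, Rdh11, a retinol dehydrogenase, differed by 0.64 ± 0.27 and Rbp4, the retinol carrier of blood, by 1.68 ± 0.80, while Rpe65 differed by 0.17 ± 0.29. At an unadjusted p under 0.05 the list held 2 members on the higher side, and 0 without ZT14 replicate 3.

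Of 18 genes of the G1 phase and replication, 2 had an unadjusted p under 0.05 on the lower side, where 3.79% of all genes lay, and 0 on the higher side. Without ZT14 replicate 3, 4 were on the lower side. In both genes that follow, the ZT19 and ZT14 samples did not overlap, as in 0.639% of all tested genes on the lower side. Both were named for their small p, which favours separated groups. Ccnd1, the cyclin of G1 entry, had 56.1, 50.6, 52.1, 58.6 and 51.5 FPKM at ZT19, against 97.8, 106, 66.6, 81.1 and 76.0 FPKM at ZT14 (−0.64 ± 0.18, adjusted p = 0.255). Wee1, a mitosis inhibitor known as a clock-controlled gene in mouse liver, had 9.57, 5.26, 4.597, 6.24 and 9.98 FPKM at ZT19, against 20.7, 12.8, 20.9, 12.3 and 11.8 FPKM at ZT14 (−1.05 ± 0.35, adjusted p = 0.337).

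In lysosome and autophagy genes, Map1lc3a, the autophagosome marker LC3A, differed by 0.41 ± 0.16, and Sqstm1, the autophagy receptor p62, by −0.50 ± 0.18. Over all tested genes, 5.84% were on the higher side and 3.79% on the lower side at an unadjusted p under 0.05. Each count in this paragraph is to be read beside these shares. Of the 31 lysosome and autophagy genes tested, 1 was on the higher side and 2 on the lower side at that threshold. Of 19 heat shock chaperones, 1 was on each side at that threshold. Stip1, a co-chaperone that links HSP70 and HSP90, differed by 0.29 ± 0.13, and Hspa1b, which has a near-identical copy in Hspa1a, by −1.13 ± 0.39, and by −0.60 with the 5 tissue scores as terms. Without ZT14 replicate 3 there were 2 on each side. Of 3 cold-inducible genes, Rbm3 differed by −0.61 ± 0.25, with 30.8 to 80.5 FPKM at ZT19 and 41.7 to 104 FPKM at ZT14, and without ZT14 replicate 3 none of the 3 had an unadjusted p under 0.05. Of 18 secreted and matrix factors, 1 was on the higher side and 2 on the lower side, and 0 and 1 without ZT14 replicate 3. Timp1, an inhibitor of matrix metalloproteinases, differed by 1.34 ± 0.51 (adjusted p = 0.403), and by 0.89 without ZT14 replicate 3, where it was listed at 0. Tgfb2, a cytokine of the RPE, differed by −0.48 ± 0.21, and by −0.25 with the 5 tissue scores as terms. Melanosome genes (17) and endoplasmic reticulum chaperones (20) had 0 members with an unadjusted p under 0.05.

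**Figure D4:**
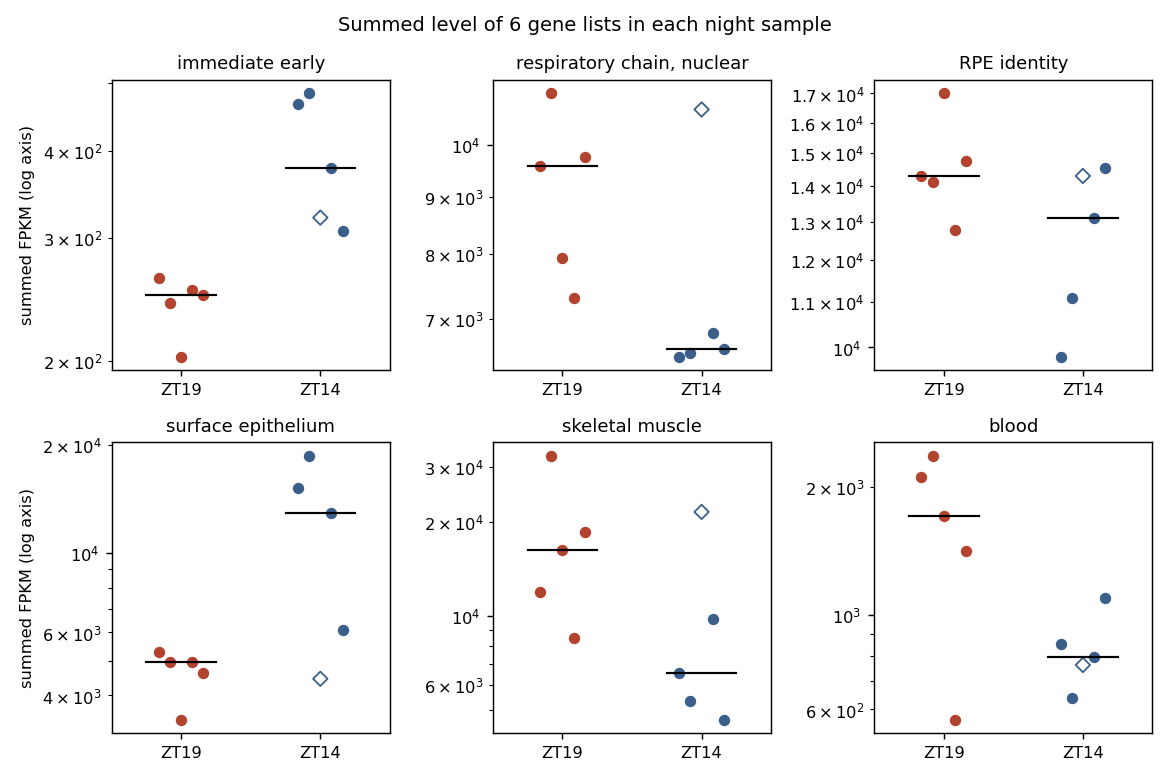
Summed FPKM, on a log axis, of 6 gene lists in each of the 5 samples at ZT19 (red, left) and at ZT14 (blue, right), with a line at the median. The open diamond is ZT14 replicate 3, which had 21470 FPKM of muscle genes and 10760 FPKM of respiratory chain genes. The immediate early level was 203 to 263 FPKM at ZT19 and 307 to 484 FPKM at ZT14.

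The summed levels of rod, myelin and blood genes overlapped between the times. Rod genes summed to 608 to 8908 FPKM at ZT19 and 735 to 4446 FPKM at ZT14, and myelin genes to 462 to 9331 FPKM at ZT19 and 927 to 12040 FPKM at ZT14. None of 15 rod genes and 1 of 13 myelin genes, Mal, had an unadjusted p under 0.05. Mal was on the lower side, where 3.79% of all genes lay, with a difference of −0.88, and of −0.11 with the 5 tissue scores as terms. Mal is itself part of the myelin score, so it was partly adjusted for its own level. It did not follow the other myelin genes closely. In replicate 4 of ZT19 and of ZT14, where the myelin sum was lowest, Mal had 222 and 518 FPKM and Mbp, the most abundant myelin gene, 48.9 and 146 FPKM. Blood genes summed to 2105, 2365, 1709, 568 and 1409 FPKM at ZT19, against 856, 640, 763, 797 and 1096 FPKM at ZT14. Of 7 tested, 4 were on the higher side at an unadjusted p under 0.05, where 5.84% of all genes lay, and 2 without ZT14 replicate 3. All 4 are globins whose near-identical copies share reads.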

How the data were processed

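RPE was measured by RNA sequencing in 30 mice, 5 per time. STAR, Cufflinks and DESeq2, with build mm10, are named in the submitters' processing notes without roles or versions. The authors' deposited table holds FPKM per Ensembl gene, written with decimal commas. Counting, strand and annotation are not given in the sources used here. Of 51904 gene IDs, 51711 were found in GENCODE M21 (GRCm38, the same assembly as mm10), which gave the positions. Counts were not used here, and depth was estimated from the steps between low values. Where exon lengths were shortened by 199 bases, 6747 of 23082 values met in 1 peak, against at most 2209 for 4 other lengths.

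log2(FPKM + 1) of genes with at least 1 FPKM in at least 5 samples was fitted in limma 3.58.1 (R 4.3.3) with 1 mean per time over all 30 samples and a trend of variance on level. The contrasts were ZT19 minus ZT14, ZT9 minus ZT4, and the difference of these steps. Tests are two-sided, and p was adjusted by Benjamini-Hochberg over all 16741 genes, with a threshold of 0.05. A log2 scale with a pseudocount of 1 understates changes of low genes. The fit was tested on simulated data. No pair of samples was identical, and the highest correlation of a night pair was 0.899.

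The members and gene lists were chosen with earlier results of these data known. Genes that could be named were all clock genes, the 10 smallest p per direction, the 3 smallest p per list, genes whose steps differed, RPE identity genes and the most abundant marker per tissue; Fos, Egr1, Rpe65 and list totals were added as context, with values seen. Many of these appear only in the counts of their lists, and 5 are not reported here by name; list counts and sums include them. Promoter windows were searched for 8 motifs. The alternatives (23) changed the samples, pseudocount, filter, scaling, variance model or covariates, or left out 1 night sample.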

Additional observations from a re-analysis of the deposited data

Results flagged for a closer look

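The 8 genes whose night step (ZT19 minus ZT14) differed from their day step (ZT9 minus ZT4) by limma's interaction term had step differences, in log2(FPKM + 1), of 4.06 for Arntl, 3.20 for Ihh, 4.33 for E130114P18Rik, −5.08 for Per2, −2.30 for Per3, −1.65 for Nr1d2, −1.74 for Dbp and −3.03 for Usp2.

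In 15 of 232 groups of 5 samples looked at, 1 sample lay far from the other 4 by Dixon's ratio, and chance flags about 1 in 20 groups. At ZT19, replicate 3 was high for Csnk1d (79.7 FPKM, others 43.0 to 46.9), Rrh (176 FPKM, others 118 to 133), Cx3cr1 (15.4 FPKM, others 5.83 to 7.22) and Npas2 (5.26 FPKM, others 0.463 to 0.982). Also at ZT19, replicate 1 was high for Stip1 (65.1 FPKM, others 52.3 to 55.2) and replicate 2 low for Rorb (1.196 FPKM, others 5.84 to 9.71).

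At ZT14, replicate 3 was high for Fbxw11 (56.3 FPKM, others 27.3 to 33.3), Sqstm1 (506 FPKM, others 364 to 386) and Lyz2 (618 FPKM, others 259 to 326). The same sample was low for Ciart (0.932 FPKM, others 7.10 to 11.8) and listed at 0 FPKM for Bfsp2 (others 15.1 to 24.6). Also at ZT14, replicate 1 was high for Clock (19.8 FPKM, others 11.8 to 13.7) and Gnb1 (681 FPKM, others 407 to 458), and replicate 4 low for Blmh (23.4 FPKM, others 44.6 to 54.6). E130114P18Rik was at 1.21 FPKM in ZT14 replicate 5 and listed at 0 in the other 4.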

How the results depend on the processing

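Against the 1 higher and 1 lower gene called, a fit of only the 10 night samples called 0 and 0 (595 higher at an unadjusted p under 0.05, against 977), and a pseudocount of 0.1 called 0 and 0. No variance trend called 2 higher genes, eye as a term 5 higher and 3 lower, and 0 lower genes were called with no filter on low values or with rod and stroma scores as terms. Leaving out each night sample gave 1 to 4 higher and 0 to 2 lower calls. With 5 tissue scores as terms, 1842 genes were higher and 1147 lower at an unadjusted p under 0.05, and 1 gene in place of 3 had a night step above its day step. Genes whose night step was below their day step numbered 3 with upper-quartile scaling, 3 with no variance trend and 8 with sample quality weights, in place of 5. Leaving out each night sample gave 3 to 5 above and 2 to 5 below.

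The 139 results followed were changes and step differences of single genes and the median changes of the lists and of all tested genes. Among the single genes, 8 changed sign under some alternative, each with an unadjusted p of 0.05 or more between the night times. With 5 tissue scores as terms the differences were −0.60 for Cry1, −0.52 for Rorb, −0.11 for Bhlhe41, −0.11 for Fbxw11 and 0.60 for Csnk1e. With eye as a term they were 0.11 for Rora and 0.043 for Csnk1e. Leaving out each night sample gave −0.024 to 0.66 for Npas2, −0.29 to 0.13 for Rora, −0.46 to 0.13 for Hlf, −0.14 to 0.14 for Bhlhe41 and −0.36 to 0.027 for Csnk1e. The cause was not tested. No paired analysis was possible because each sample is a separate mouse and the labels give no replicate numbers. At 1 FPKM a transcript of 2000 bases stands for 27 to 38 reads, so lower values and shorter transcripts rest on fewer. A gene listed at 0 can be a failed estimate.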
